A study of Bos taurus with 9 samples.

Results

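Glycolysis was followed here through 10 genes of its enzymes and regulators, *HK1*, *HK2*, *PFKL*, *PFKP*, *PFKFB3*, *ALDOA*, *PGK1*, *ENO1*, *PKM* and *LDHA*, in cultured bovine endometrial cells (BEND). The genes were taken by their symbols, and all 10 were among the 17162 genes of the expression table and among the 12578 genes that could be tested. After IFNT, *HK1*, *ALDOA* and *LDHA* were 15.4% to 24.0% lower in GB than in GA, and the other 7 genes did not pass the test. Of all tested genes, 29% passed in the same comparison, with 19.2% lower, and 3 of 10 is about that background share. With estradiol and progesterone but no IFNT (GA vs. CON), none of the 10 passed the test, beside 0.453% of all tested genes.

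Glycolysis breaks glucose down to pyruvate in the cytosol and yields ATP without oxygen. Hexokinases trap glucose in the cell as glucose 6-phosphate, phosphofructokinase sets the pace of the pathway, and lactate dehydrogenase turns pyruvate into lactate and restores the NAD+ that an earlier step uses. In the uterus, glucose is a main nutrient that the endometrium passes to the conceptus before the placenta forms. Many of these enzymes exist as isoenzymes from different genes, which cells use in different mixtures.

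The study held 9 libraries of messenger RNA from wild-type BEND, 3 in each of 3 groups. CON cells were untreated, GA cells received 1 nM E2 (estradiol) and 100 nM P4 (progesterone) for 12 h, and GB cells received the same hormones for 12 h and then 100 ng/mL IFNT (interferon tau, the type I interferon by which a ruminant conceptus signals its presence) for another 12 h. The cells came from uteri of Holstein cows collected at an abattoir, were passaged 3 to 5 times and were grown in medium with 10% FBS. No harvest time is given for CON or GA cells, and culture time and treatment therefore cannot be told apart in the 3 comparisons. The study describes a change to fresh medium with the hormones for the treated groups and states none for CON. The part of either in the results was not tested. The study describes the replicates as biological and the cells as grown in dishes, without saying whether replicates came from separate animals or cell isolations, and p-values measure only the spread between these libraries.

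Expression was given by the authors as FPKM, the fragments of a gene scaled to its length and to the size of the library, so that levels of different genes can be compared per length. The table gives no read counts and no counting intervals were set. The lowest value of any of the 10 genes in any library was 24.2 FPKM. Between libraries of a group, Pearson's r across the tested genes was 0.989 to 0.991. The treatments showed in marker genes, since *MX2*, an interferon-induced antiviral gene, was at 753 to 762 FPKM in GB and at most 0.14 elsewhere, *ISG15*, another such gene, had a log2FC of 10.34 in GB vs. GA, and *GREB1*, an estrogen-induced gene, was at 2.03 to 2.51 FPKM in GB, 2.12 to 2.44 in GA and at most 0.38 in CON. The study reported positive immunofluorescence for cytokeratin, an epithelial protein, in these cells. Epithelial marker RNA was low, since none of 12 epithelial genes, including *KRT8*, *KRT18* and *CDH1*, was above 0.74 FPKM in any library, while all 12 stromal fibroblast genes had a mean of at least 1 FPKM. Summed over the stromal list, FPKM ranged over 16992 to 17591 (CON), 17137 to 17559 (GA) and 15414 to 15519 (GB), with GB lowest. The genes of this list did not share 1 direction, since 5 of the 12 were lower and 2 higher in each comparison with GB (adjusted p under 0.05). Their log2FC ranged over −0.32 to 0.33 in GB vs. GA and −0.46 to 0.38 in GB vs. CON. The immune list, 3 of whose 7 genes had a mean of at least 1 FPKM, summed to 25.5 to 28.6 (CON), 26.8 to 28.9 (GA) and 30.2 to 36.4 (GB), with GB highest. Of its 3 tested genes, 1 was higher in GB (log2FC 2.03, adjusted p = 1.13e-06 against GA, and 1.79, adjusted p = 2.88e-06 against CON). The other 2 did not pass in either comparison, and both had a log2FC below 0 in GB vs. GA. The endothelial list, with 1 of 6 genes at such a mean, summed to 1.68 to 2.45 (CON), 1.65 to 1.81 (GA) and 2.27 to 3.44 (GB), and its 1 tested gene, *CDH5*, was higher in GB vs. GA (log2FC 0.68, adjusted p = 0.0395). The part of these differences in the results was not tested. Within the immune list, *AIF1*, *CSF1R* and *ITGAM* were at most 0.60 FPKM, while the highest value of any listed gene was 23.3 FPKM. The 3 genes with a mean of at least 1 FPKM were among the rest of the list. That rest was chosen as *CD14*, *CD68*, *CD163*, *CD2* and *CD79A*, so the low values do not describe the whole list. Fewer cells of a type and less RNA per cell cannot be told apart in such bulk samples.

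In untreated cells the levels of the 10 genes spanned from *PFKFB3* at 29.3 ± 0.886 FPKM (SD, n = 3) to *ENO1* at 2513 ± 89.4. *ENO1* (enolase), *PKM* (pyruvate kinase, 2236 ± 120.4 FPKM) and *ALDOA* (aldolase, 1523 ± 42.3) led, and none of these overlapped with the next in order. *LDHA* (769 ± 36.8) and *PGK1* (phosphoglycerate kinase, 734 ± 21.0) followed, and their CON libraries overlapped. The genes of the early steps were lower, with *HK1* (145 ± 6.22) overlapping *PFKP* (136 ± 2.88), then *PFKL* (119 ± 9.60), *HK2* (41.9 ± 2.33) and *PFKFB3*. In GB this order changed in places. *PGK1* stood above *LDHA* in every GB library, and *HK1* stood below *PFKP* and overlapped *PFKL*. The summed FPKM of the 10 genes made up 0.570% to 0.607% (CON), 0.567% to 0.582% (GA) and 0.532% to 0.543% (GB) of the FPKM total, and every GB library lay below all others.

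**Figure D1:**
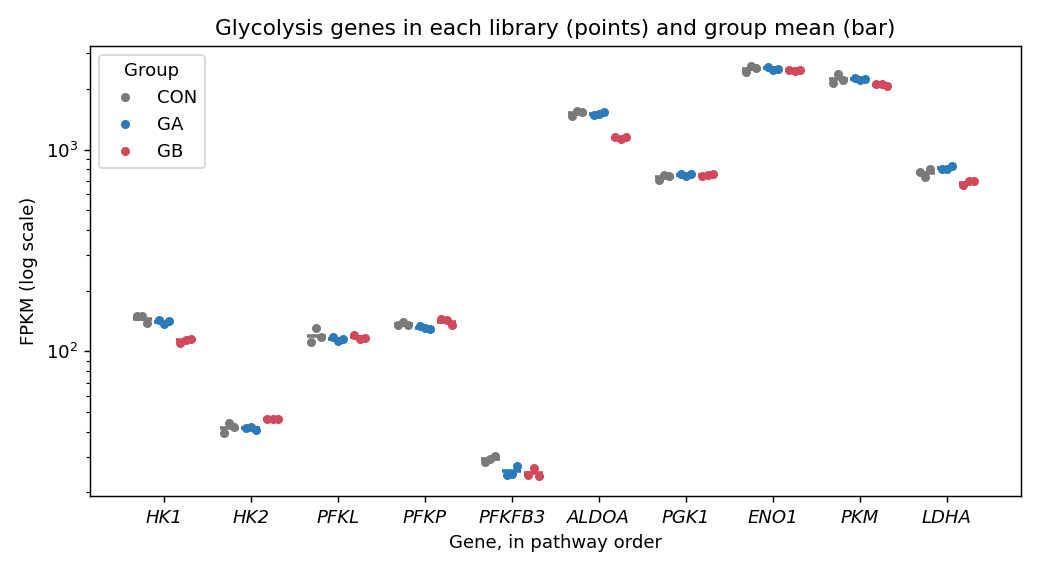
FPKM on a log scale of each of the 10 glycolysis genes in the 9 libraries, with points for libraries, bars for group means and a colour for each group. The GB points of *HK1*, *ALDOA* and *LDHA* lie below all CON and GA points, while those of *PGK1* and *ENO1* overlap CON.

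Of the hexokinase genes, *HK1* fell after IFNT and *HK2* did not pass the test. *HK1*, the broadly expressed hexokinase that binds to mitochondria, was at 149, 149 and 138 FPKM (CON), 143, 137 and 141 FPKM (GA) and 110.3, 114 and 116 FPKM (GB). All GB libraries lay below all others, and the mean was 19.4% lower than in GA (log2FC −0.31, SE 0.0441, adjusted p = 0.000817) and 22.1% lower than in CON (log2FC −0.36, SE 0.0441, adjusted p = 0.000298). *HK2*, the inducible hexokinase of muscle and growing cells, was at 39.4, 44.0 and 42.4 FPKM (CON), 41.6, 42.4 and 40.6 FPKM (GA) and 46.4, 46.4 and 46.0 FPKM (GB). Its GB libraries were above all others, but the difference of 0.15 (95% interval 0.038 to 0.27) on the log2 scale from GA did not pass over all genes (adjusted p = 0.0506), nor did that of 0.14 from CON (adjusted p = 0.0588). The difference from GA passed without CON1 or CON2 and that from CON without CON2. With median-of-ratios factors, which rescale libraries by the typical gene, it was 0.23 in GB vs. GA (adjusted p = 0.0158). The ratio of *HK2* to *HK1* within a library, which a scaling factor per library cannot move, was 0.264, 0.295 and 0.307 (CON), 0.292, 0.309 and 0.288 (GA) and 0.421, 0.408 and 0.398 (GB). It was higher in every GB library than in any other, by 0.47 on the log2 scale against GA and 0.50 against CON (exact permutation test, two-sided, p = 0.1 in both, the smallest that 3 against 3 libraries allow). Of the summed FPKM of *HK1*, *HK2* and *HK3*, *HK2* made up 22.3% ± 1.35 (CON), 22.7% ± 0.651 (GA) and 28.8% ± 0.648 (GB; SD, n = 3 each). That sum lay between 181 and 185 FPKM in GA and between 158 and 163 in GB.

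Phosphofructokinase commits sugar to glycolysis and is built from liver (*PFKL*), platelet (*PFKP*) and muscle (*PFKM*) type subunits. *PFKL* was at 111, 130.0 and 117 FPKM (CON), 118, 113 and 116 FPKM (GA) and 120.3, 115 and 116 FPKM (GB). The groups overlapped throughout, and the log2FC was 0.021 in GB vs. GA (95% interval −0.11 to 0.15) and −0.025 in GB vs. CON (−0.15 to 0.11). *PFKP* was at 135, 139.7 and 135 FPKM (CON), 133, 130.2 and 129 FPKM (GA) and 144, 143 and 135 FPKM (GB). Its GB libraries were above the GA libraries and overlapped CON, with a log2FC of 0.10 in GB vs. GA (95% interval 0.012 to 0.20, adjusted p = 0.0875). It passed with median-of-ratios factors (0.18, adjusted p = 0.0251). The *PFKP* to *PFKL* ratio ranged from 1.11 to 1.16 (GA) and from 1.16 to 1.24 (GB), with no overlap before rounding (exact permutation p = 0.1), and the GB values overlapped those in CON, 1.21, 1.07 and 1.15. *PFKM*, a minor subunit gene outside the 10, was at 16.4, 18.2 and 16.1 FPKM (CON), 17.1, 17.3 and 17.8 FPKM (GA) and 13.7, 15.1 and 11.8 FPKM (GB), and was lower in GB than in GA (log2FC −0.36, SE 0.0894, adjusted p = 0.0151) and than in CON (log2FC −0.32, SE 0.0894, adjusted p = 0.0231). The *PFKM* call in GB vs. GA was lost without GA3 or with median-of-ratios factors, and that in GB vs. CON without CON2, GB1 or GB3, with only these groups fitted, or with read GC content as a covariate.

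*PFKFB3* makes fructose 2,6-bisphosphate, the strongest activator of phosphofructokinase. It was at 28.4, 29.2 and 30.2 FPKM (CON), 24.4, 24.8 and 27.0 FPKM (GA) and 24.4, 26.4 and 24.2 FPKM (GB). Here the CON libraries stood apart, above all GA and GB libraries, while GA and GB overlapped. GB was 14.6% lower than CON (log2FC −0.22, SE 0.0605, adjusted p = 0.0191), and this call was lost without CON3, GB1 or GB3, with adjusted p up to 0.0653. GA was 13.2% lower than CON with a log2FC of −0.20 (95% interval −0.34 to −0.065), which did not pass over all genes (adjusted p = 0.140), and the log2FC of GB vs. GA was −0.023 (−0.16 to 0.11). Its ratio to *PFKFB4*, a related isoenzyme gene, averaged 3.33 ± 0.426 (CON), 3.29 ± 0.237 (GA) and 3.49 ± 0.654 (GB; SD, n = 3 each), and all groups overlapped.

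*ALDOA* encodes the aldolase that splits fructose 1,6-bisphosphate, and it showed the largest difference of the 10 genes in both comparisons with GB. It was at 1475, 1556 and 1537 FPKM (CON), 1492, 1500.1 and 1535 FPKM (GA) and 1158, 1134 and 1149.7 FPKM (GB). GB was 24.0% lower than GA (log2FC −0.40, SE 0.0347, adjusted p = 3.46e-05) and 24.7% lower than CON (log2FC −0.41, SE 0.0347, adjusted p = 2.44e-05), with no overlap in either. *ALDOC*, the brain type aldolase gene, made up only 1.67% ± 0.171 (SD, n = 3) of aldolase FPKM in CON and 1.96% ± 0.121 in GB, and its own log2FC was −0.14 in GB vs. GA (95% interval −0.33 to 0.060). The *ALDOA* to *ALDOC* ratio was 58.7, 60.7 and 59.8 (GA) and 53.8, 48.8 and 47.7 (GB) (exact permutation p = 0.1), and GB overlapped CON.

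*PGK1*, *ENO1* and *PKM*, the genes of later steps on the way to pyruvate, did not pass in any comparison. *PGK1*, whose enzyme makes the first ATP of the pathway, was at 710.2, 750.0 and 742 FPKM (CON), 756, 739 and 757 FPKM (GA) and 743, 752 and 759.7 FPKM (GB). Its log2FC was 0.0020 in GB vs. GA (95% interval −0.077 to 0.080) and 0.034 in GB vs. CON (−0.044 to 0.11), so a change of the size seen in *ALDOA* lay outside both intervals. The *ALDOA* to *PGK1* ratio, chosen after the values were seen and given with no test, ranged over 2.07 to 2.08 (CON), 1.97 to 2.03 (GA) and 1.51 to 1.56 (GB). *ENO1* was at 2412, 2584 and 2541 FPKM (CON), 2573, 2493 and 2516 FPKM (GA) and 2466, 2466 and 2482 FPKM (GB). The groups overlapped in GB vs. CON, and the log2FC was −0.023 there (95% interval −0.11 to 0.060) and −0.032 in GB vs. GA (−0.12 to 0.051), where every GB library lay below every GA library.

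*PKM* gives rise by splicing to the M1 and M2 forms of pyruvate kinase, which gene-level FPKM cannot separate. It was at 2133, 2368 and 2206 FPKM (CON), 2269, 2203 and 2231 FPKM (GA) and 2106, 2107 and 2056 FPKM (GB). Every GB library lay below every other library, but by little, with a log2FC of −0.097 in GB vs. GA (95% interval −0.19 to 0.00071, adjusted p = 0.128) and −0.096 in GB vs. CON (−0.19 to 0.0010, adjusted p = 0.118). With median-of-ratios factors the log2FC in GB vs. GA was −0.022 (adjusted p = 0.794).

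*LDHA*, the lactate dehydrogenase gene that favours lactate formation, was at 771, 731 and 804 FPKM (CON), 804, 799 and 830.1 FPKM (GA) and 665, 699 and 696 FPKM (GB). All GB libraries lay below all others, 15.4% under GA on average (log2FC −0.24, SE 0.0438, adjusted p = 0.00324) and 10.7% under CON (log2FC −0.16, SE 0.0438, adjusted p = 0.0191). The call against CON was lost without CON3 or GB1, with adjusted p up to 0.0701. *LDHB*, whose product favours the return of lactate to pyruvate, was at 518, 519 and 518 FPKM (CON), 535, 497 and 519 FPKM (GA) and 517, 531 and 547 FPKM (GB), and its log2FC was 0.042 in GB vs. GA (95% interval −0.046 to 0.13). The *LDHA* to *LDHB* ratio was 1.49, 1.41 and 1.55 (CON), 1.50, 1.61 and 1.60 (GA) and 1.29, 1.31 and 1.27 (GB). It was lower in every GB library than in any other, with a log2 difference of −0.28 from GA and −0.20 from CON (exact permutation test, two-sided, p = 0.1 in both). With read GC content as a covariate the difference from CON was −0.32. *LDHA* made up 61.0% ± 0.940 (SD, n = 3) of the summed FPKM of *LDHA*, *LDHB* and *LDHC* in GA and 56.2% ± 0.460 in GB.

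**Figure D2:**
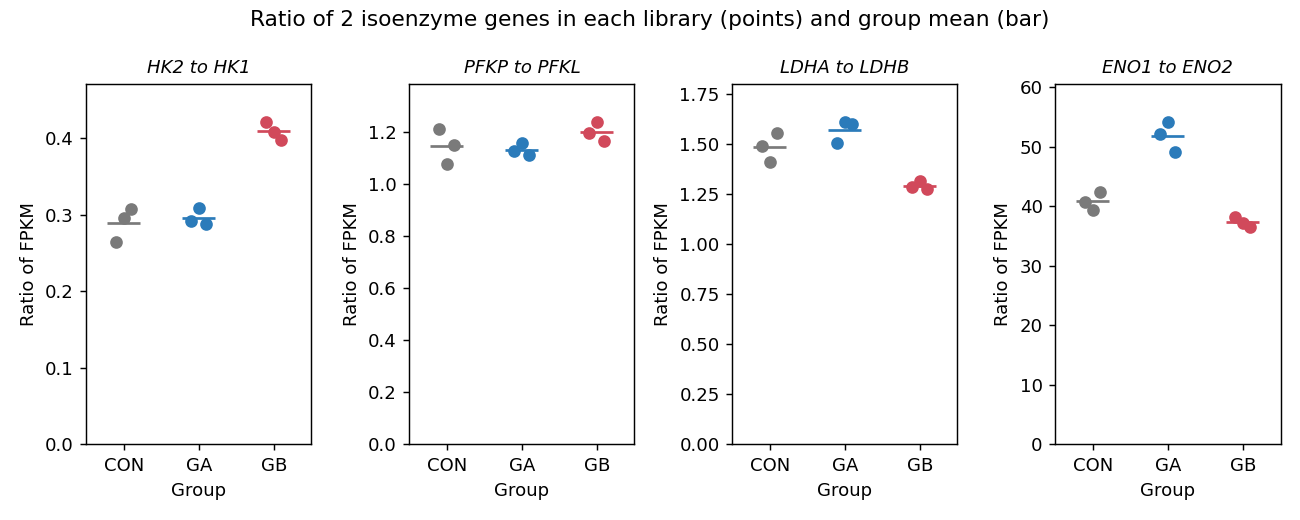
Ratio of the FPKM of 2 isoenzyme genes within each library, with points for libraries and bars for the means of CON, GA and GB, on axes from 0. The *HK2* to *HK1* points of GB lie above, and the *LDHA* to *LDHB* and *ENO1* to *ENO2* points of GB below, all points of CON and GA, while the *PFKP* to *PFKL* points of GB overlap CON.

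In GB vs. GA, which asks what IFNT adds to hormone-treated cells, 3 of the 10 genes were lower at an adjusted p under 0.05 (*HK1*, *ALDOA* and *LDHA*) and 0 were higher. Over all 12578 tested genes, 29% passed this threshold, 19.2% lower and 9.87% higher, which is close to the share among the 10. At an unadjusted p under 0.05, 3 were lower and 2 higher (*HK2* and *PFKP*). The median log2FC of the 10 genes was −0.028, against −0.075 over all tested genes. None of the 10 exceeded a |log2FC| of 1, the fold threshold of the study, which together with the adjusted p was passed by 3.64% of all genes. Scaling moved the split of calls over all genes, which was 1242 higher and 2409 lower as reported and, by median-of-ratios factors, 1791 higher and 1594 lower. The 3 falls held in every alternative tried in this comparison, while with these factors *HK2* and *PFKP* were called higher as well.

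For GB vs. CON, which sets cells given hormones and IFNT against untreated cells, 4 genes were lower (*HK1*, *PFKFB3*, *ALDOA* and *LDHA*) and 0 higher. At an unadjusted p under 0.05, 4 were lower and 1 higher (*HK2*). Over all genes 33.5% passed, 17.3% lower and 16.2% higher, and 4.01% passed both thresholds, which again none of the 10 did. The median log2FC was −0.060, against −0.016 over all tested genes. GB vs. CON and GB vs. GA share the GB libraries and are not separate evidence. The GC content of the clean reads was lower in every GA and GB library than in every CON library, while GA and GB overlapped. With it as a covariate the log2FC in GB vs. CON was −0.38 for *ALDOA* (adjusted p = 0.00595), −0.34 for *HK1* (adjusted p = 0.0365), −0.31 for *LDHA* (adjusted p = 0.0100) and −0.29 for *PFKFB3* (adjusted p = 0.157), so that the call of *PFKFB3* ended and 3 of the 10 passed, against 11.7% of all genes. With the replicate number added as a block, 4.09% of all genes and 0 of the 10 passed (*ALDOA* −0.31, adjusted p = 0.0740; *HK1* −0.36, adjusted p = 0.185).

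Between GA and CON, medium change and culture time may differ as well as E2 and P4. Here 0 of the 10 genes passed by limma and 1, *PFKFB3*, had an unadjusted p under 0.05. Over all genes 0.453% passed, 0.246% higher and 0.207% lower, and 0.0716% passed both thresholds. The other 9 log2FC lay between −0.062 (*PFKP*) and 0.078 (*LDHA*). For *ALDOA* the 95% interval was −0.091 to 0.065, for *HK1* −0.15 to 0.052, for *PGK1* −0.046 to 0.11 and for *ENO1* −0.074 to 0.092.

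**Figure D3:**
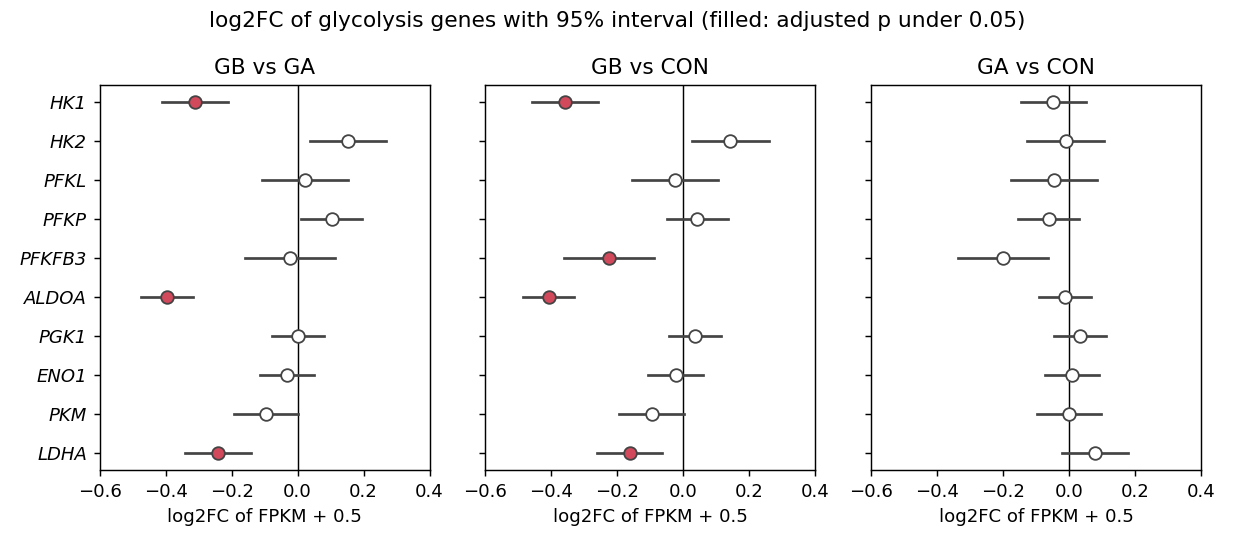
Change of each of the 10 genes as log2FC of FPKM + 0.5 (horizontal axis) in the 3 comparisons, with 95% intervals from limma and filled points for an adjusted p under 0.05. *HK1*, *ALDOA* and *LDHA* are filled and below 0 in both comparisons with GB, *PFKFB3* is filled in GB vs. CON, and no point is filled in GA vs. CON.

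The pathway was completed with a list of 25 further glycolysis genes, of which 24 were in the table and 19 could be tested. In GB vs. GA 4 were lower and 2 higher, 6 of 19 beside 29% of all genes, and in GB vs. CON 6 were lower and 2 higher, 8 of 19 beside 33.5%. The median log2FC was −0.11 and −0.13. *GPI*, the isomerase between hexokinase and phosphofructokinase, was at 455, 449.5 and 466 FPKM (CON), 443, 439 and 458 FPKM (GA) and 347, 346 and 341 FPKM (GB), and fell by 22.9% against GA (log2FC −0.37, SE 0.0343, adjusted p = 4.79e-05), close to *ALDOA* in size. *GAPDH*, which has near-identical copies in mammalian genomes and is often taken as a reference gene, was at 4982, 5878 and 5235 FPKM (CON), 5216, 5150.4 and 5226 FPKM (GA) and 4364, 4333 and 4378 FPKM (GB) and was lower in GB (log2FC −0.25, adjusted p = 0.00865 against GA, and −0.30, adjusted p = 0.00341 against CON), a difference that did not pass with median-of-ratios factors in GB vs. GA or with read GC content as a covariate in GB vs. CON. *TPI1* was lower by little (−0.14, adjusted p = 0.0326 in GB vs. GA and −0.13, adjusted p = 0.0308 in GB vs. CON). Its call was lost without GA1, GA2 or any GB library in GB vs. GA and without CON2, CON3, GA2 or any GB library in GB vs. CON. Both calls were also lost with median-of-ratios factors, quantile normalization or no variance trend, and that in GB vs. GA with TPM scaling or no filter. They held in 12 of 22 alternatives in GB vs. GA and in 10 of 22 in GB vs. CON. *PGAM1*, the next enzyme after *PGK1*, did not pass (−0.11, adjusted p = 0.0566 in GB vs. GA).

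Among the genes that were higher, *ADPGK*, a glucokinase that uses ADP in place of ATP, was at 57.1, 51.2 and 54.9 FPKM (CON), 55.0, 55.9 and 54.7 FPKM (GA) and 90.0, 86.3 and 88.7 FPKM (GB). It was 1.60-fold higher in GB than in GA (log2FC 0.67, SE 0.0493, adjusted p = 9.25e-06) and 1.63-fold higher than in CON. *ENO2*, the enolase gene of neurons, was at 59.4, 65.6 and 59.9 FPKM (CON), 49.4, 46.1 and 51.3 FPKM (GA) and 64.6, 66.2 and 68.1 FPKM (GB), lowest in the GA libraries, while GB overlapped CON. Its log2FC was 0.44 in GB vs. GA (adjusted p = 0.000560), 0.11 in GB vs. CON (adjusted p = 0.193) and −0.33 in GA vs. CON (adjusted p = 0.0539). The *ENO1* to *ENO2* ratio was accordingly highest in GA, at 52.0, 54.1 and 49.1, against 40.6, 39.4 and 42.4 (CON) and 38.2, 37.2 and 36.4 (GB), with no overlap between any pair of groups (exact permutation p = 0.1 for each). *ENO3* (−0.73, adjusted p = 0.00101) and *PFKFB2* (−0.43, adjusted p = 0.0130) were lower and *BPGM* (0.15, adjusted p = 0.0480) was higher in GB vs. CON. None of them passed in GB vs. GA, with log2FC of −0.24 (*ENO3*), −0.24 (*PFKFB2*) and −0.0036 (*BPGM*). In GA vs. CON the log2FC were −0.49, −0.19 and 0.16 in the same order, and none passed. The *BPGM* call held in 6 of 22 alternatives and was lost without any CON or GA library, GB2 or GB3.

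**Figure D4:**
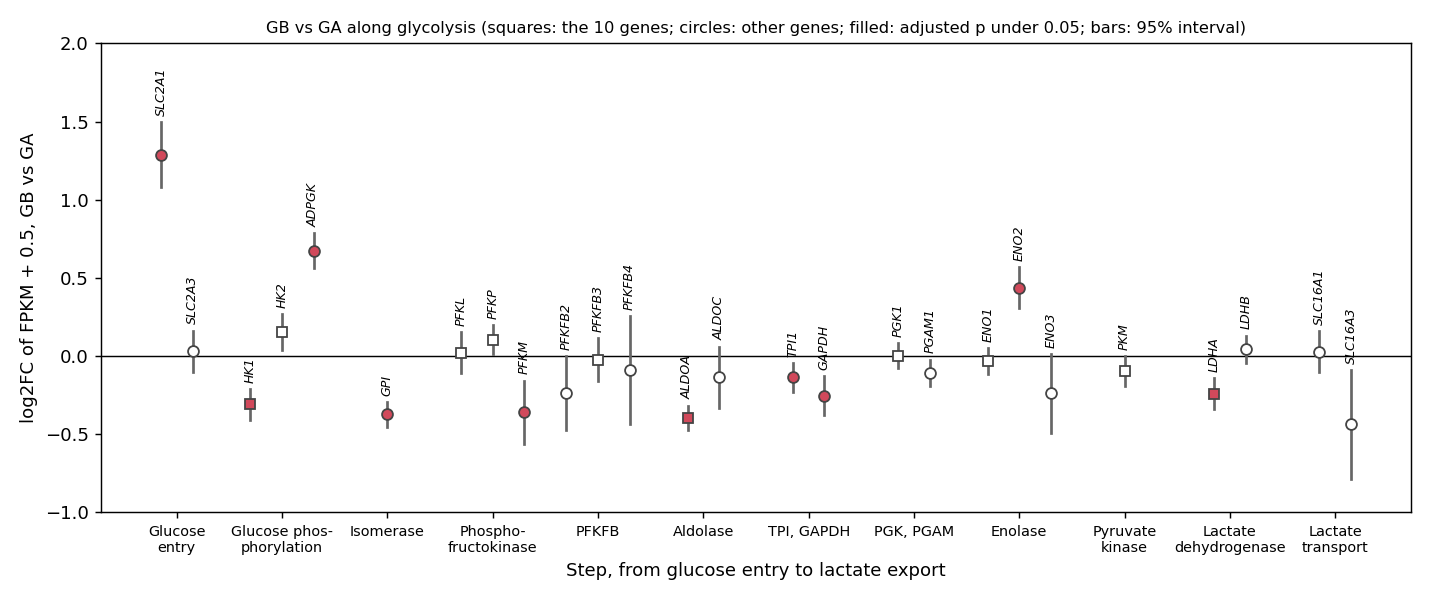
log2FC of FPKM + 0.5 in GB vs. GA (vertical axis, bars for 95% intervals) for genes placed by step from glucose entry to lactate export, with squares for the 10 genes, circles for others and filled symbols for an adjusted p under 0.05. *SLC2A1* and *ADPGK* lie highest, *ALDOA*, *GPI* and *HK1* are filled below 0, and *PGK1* and *ENO1* lie near 0.

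The glucose transporter genes held a larger difference than any of the 10. *SLC2A1*, the glucose transporter GLUT1, was at 18.1, 16.6 and 19.1 FPKM (CON), 17.9, 15.0 and 16.7 FPKM (GA) and 41.2, 37.1 and 45.1 FPKM (GB). It was 2.49-fold higher in GB than in GA (log2FC 1.29, SE 0.0927, adjusted p = 8.25e-06) and 2.29-fold higher than in CON (log2FC 1.17, SE 0.0927, adjusted p = 1.49e-05), with every GB library above all others. *SLC2A3*, the transporter GLUT3, stood higher than *SLC2A1* in each library, at 89.0 to 101 FPKM, and its log2FC was 0.031 in GB vs. GA (95% interval −0.10 to 0.16). *SLC2A6* was higher in GB (0.33, adjusted p = 0.00565 against GA, and 0.38, adjusted p = 0.00236 against CON). Lactate leaves cells through *SLC16A1* and *SLC16A3*. *SLC16A1* ranged from 90.1 to 111 FPKM and did not pass in GB vs. GA (0.028, adjusted p = 0.757), and *SLC16A3*, at 10.4, 8.97 and 6.93 FPKM (CON), 6.72, 7.94 and 7.33 FPKM (GA) and 4.58, 5.14 and 6.21 FPKM (GB), was lower in GB vs. CON (−0.67, adjusted p = 0.00940) but did not pass in GB vs. GA (−0.44, adjusted p = 0.0607). Of 11 tested transport genes, 2 were higher and 0 lower in GB vs. GA, and 2 higher and 1 lower in GB vs. CON. The shares of all tested genes that passed in these comparisons were 29% and 33.5%.

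Downstream, pyruvate enters mitochondria or is turned away by the pyruvate dehydrogenase kinases. *PDK1*, a kinase that shuts pyruvate dehydrogenase, was at 7.13, 5.96 and 7.09 FPKM (CON), 8.40, 10.2 and 8.56 FPKM (GA) and 2.76, 3.60 and 4.24 FPKM (GB), with GB below all other libraries (log2FC −1.25, adjusted p = 0.000248 in GB vs. GA, and −0.85, adjusted p = 0.00204 in GB vs. CON). *PDK2* (−0.61, adjusted p = 0.00464) and the pyruvate carrier subunit *MPC2* (−0.55, adjusted p = 0.00457) were lower in GB vs. GA too, and *PDK2* (−0.46, adjusted p = 0.0153, lost without CON1) and *PC* (−0.39, adjusted p = 0.000415), pyruvate carboxylase, in GB vs. CON. Of 15 tested genes of pyruvate entry, 6 were lower and 0 higher in GB vs. GA, and 5 lower and 0 higher in GB vs. CON. Among all tested genes, 29% passed in GB vs. GA (19.2% lower) and 33.5% in GB vs. CON (17.3% lower). *GPD1L*, which resembles the glycerol 3-phosphate dehydrogenase that draws on the product of aldolase, was at 22.2, 21.5 and 19.4 FPKM (CON), 23.5, 21.1 and 24.6 FPKM (GA) and 6.21, 5.99 and 7.96 FPKM (GB) (log2FC −1.71, SE 0.110, adjusted p = 3.51e-06 in GB vs. GA, and −1.58, adjusted p = 5.76e-06 in GB vs. CON). The 13 subunit genes of mitochondrial DNA were all lower in both comparisons with GB, with median log2FC of −2.45 and −2.36, and the furthest down in GB vs. GA were *ND4L* (−3.20), *CYTB* (−3.16) and *ND4* (−3.13).

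**Figure D5:**
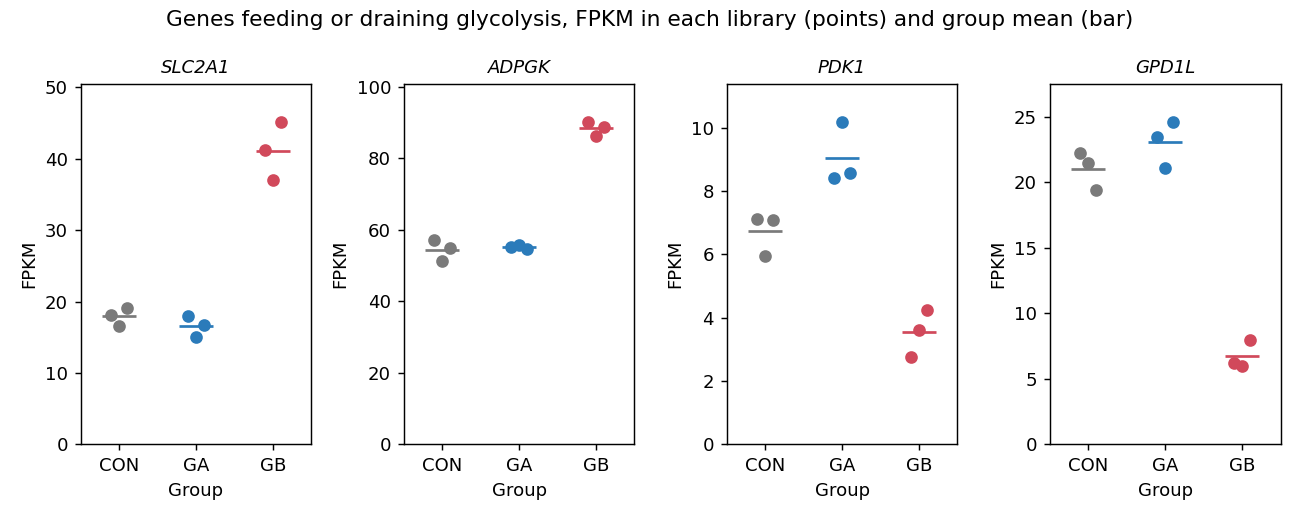
FPKM, on axes from 0, of *SLC2A1*, *ADPGK*, *PDK1* and *GPD1L* in each library (points) with group means (bars). GB lies above CON and GA for *SLC2A1* and *ADPGK* and below both for *PDK1* and *GPD1L*, with no overlap.

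Known regulators of these genes were read from the same fit. *HIF1A*, which encodes the hypoxia-inducible factor that drives many glycolysis genes, was at 62.5 to 72.6 FPKM in all libraries, with a log2FC of −0.022 in GB vs. GA (95% interval −0.12 to 0.081). *EPAS1*, the related HIF2A gene, was slightly lower in GB vs. GA (−0.17, adjusted p = 0.0409) and did not pass in GB vs. CON (−0.042, adjusted p = 0.579). The *EPAS1* call was lost with TPM scaling, median-of-ratios factors or quantile normalization, with the replicate block, and without GA2, GA3 or any GB library. *MYC*, a transcription factor that also acts on glycolysis genes, was at 72.2, 60.5 and 73.2 FPKM (CON), 76.1, 78.3 and 75.7 FPKM (GA) and 113, 107 and 117 FPKM (GB) and was higher in GB (0.55, adjusted p = 0.000555 against GA, and 0.71, adjusted p = 8.62e-05 against CON). *TXNIP*, which limits glucose uptake, was higher (0.30, adjusted p = 0.0323 and 0.42, adjusted p = 0.00648 in the same order) and *ARNT2*, a partner of the HIF proteins, lower (−0.95, adjusted p = 0.00973 and −0.87, adjusted p = 0.0126), while *EGLN3* was higher in GB vs. CON (0.69, adjusted p = 0.0322). The call of *TXNIP* in GB vs. GA was lost without GA1, GA2, GB2 or GB3, and that of *EGLN3* without CON1, CON3 or GB3. With read GC content as a covariate, the GB vs. CON calls of *ENO3*, *BPGM*, *TPI1*, *SLC2A6*, *SLC16A3*, *PDK2*, *PC*, *TXNIP*, *ARNT2* and *EGLN3* were lost. Of 19 tested regulators, 2 were higher and 2 lower in GB vs. GA, and 5 higher and 1 lower in GB vs. CON. These counts stand beside 29% and 33.5% of all tested genes that passed in either direction.

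The gene whose groups differed most among the 10, by the moderated F statistic, was *ALDOA*. Among tested genes outside the lists, those with the most similar profile over the 9 libraries were *PI4KA* (Pearson's r = 0.996), *CADM1* (0.995), *VPS33A* (0.995), *LAMB1* (0.995) and *METTL22* (0.995). These values describe 9 libraries in 3 groups, and any gene that is lower in GB alone will score high. *LAMB1*, a laminin chain gene, was the most abundant of them, at 333 to 341 FPKM in CON and 255 to 261 in GB, a log2FC of −0.39.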

How the data were processed

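RNA-seq of the 9 BEND libraries was used as deposited. According to the submitters' processing notes and the methods, reads were trimmed with fastp 0.21.0, cleared of rRNA with Bowtie2, aligned to ARS-UCD1.2 with HISAT2 2.2.1 and counted per gene with RSEM 1.3.3. The deposited FPKM were written by the authors with 2 decimals, 1 column per library. No annotation release or strand setting was found in the text read here. Read counts were not used here, so DESeq2, the test of the authors, was not run.

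The test used log2(FPKM + 0.5), unscaled, for the 12578 genes that averaged at least 0.5 FPKM across libraries. A model with a mean per group was fitted to all 9 libraries with limma 3.58.1 in R 4.3.3 (variance trend, Benjamini-Hochberg adjustment over all tested genes), and figures were drawn with matplotlib 3.10.9. A log2FC on this scale understates changes of low genes, and near 0 FPKM its size depends on the 0.5 that was added. The log2FC of *MX2* in GB vs. GA was 10.3 here and ranged over 9.42 to 11.8 in the alternatives described below. Ratios of isoenzyme genes were compared with two-sided exact permutation tests. The procedure was tested on simulated data. The 10 genes, the gene lists and the alternatives were chosen with earlier results of these data known. Named genes were the 10, a fixed set of partner genes and, of each list, up to 3 with the largest rise and 3 with the largest fall past the adjusted p in a comparison with GB, some of which are not reported here. Read GC content per library, used as a covariate with and without the replicate block, came from the study's read statistics. Sequences and coordinates were not analysed here. In the RefSeq ARS-UCD2.0 annotation, *PGK1* overlaps *TAF9B* (14.4 to 21.4 FPKM), *HK1* overlaps *HKDC1* and *TACR2* (at most 0.04 and 0.9 FPKM) and *PFKFB3* overlaps *PRKCQ* (2.49 to 3.45 FPKM), so shared reads of these genes are uncertain. The genes named for a profile like that of *ALDOA* were the 5 with the highest Pearson's r.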

Additional observations from a re-analysis of the deposited data

How the results depend on the processing

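Each count and log2FC was recomputed with other pseudocounts (1 and 0.1), other filters (none, and a mean FPKM of 1), 4 scalings, no variance trend, only the compared groups, the replicate block, read GC content with and without that block, and without each library. The count of 3 genes of the 10 lower in GB vs. GA stayed at 3 or 4 in all of them, the added gene being *PKM*. The count of 0 higher in GB vs. GA became 2 with TPM scaling, median-of-ratios factors or read GC content as a covariate, and 1 with a filter at a mean FPKM of 1, scaling to the sum without mtDNA genes, only the 2 groups, or GC content with the replicate block, and it was 0 to 1 with a library left out. The genes involved were *HK2* and, where there were 2, *PFKP*. In GB vs. CON the 4 lower genes became 0 with GC content and the replicate block and were 2 to 4 with a library left out (2 without CON3 or GB1), where 0 to 1 were higher. The cause was not tested.

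Of the other glycolysis enzymes, those lower in GB vs. GA numbered 1 with median-of-ratios factors in place of 4. In GB vs. CON those higher numbered 1 in place of 2 with no filter, scaling without mtDNA genes, quantile normalization, no variance trend, the replicate block, GC content with or without it, or only the 2 groups, and 1 to 3 with a library left out. Those lower numbered 3 with GC content and 0 with GC content and the block in place of 6. In GA vs. CON 1 in place of 0 was lower under each of the 4 scalings (TPM, without mtDNA genes, median-of-ratios, quantile). *ADM* in GB vs. CON turned from 0.28 to −0.011 with GC content as a covariate.

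No shared effect of the replicate number was seen, since deviations of same-numbered libraries correlated at −0.031 to 0.077 and those of other numbers at −0.068 to 0.056. With 3 libraries a group, these values cannot exclude that equal numbers mark paired libraries. The replicate block alone left 3 and 4 of the 10 genes lower in GB vs. GA and GB vs. CON. The isoenzyme ratios were recomputed with 0.5 added to both values and without each library, and no difference moved by more than the spread between replicates. Read GC content without and with the block, chosen for the ratios after seeing the data, moved none of the 6 in GB vs. GA beyond that spread but did move others. In GB vs. CON the log2 difference became −0.029 and −0.17 (*PFKP* to *PFKL*), −0.32 and −0.36 (*LDHA* to *LDHB*), −0.39 and −0.46 (*ALDOA* to *ALDOC*) and −0.33 and −0.22 (*PFKFB3* to *PFKFB4*), and with the block 0.66 (*HK2* to *HK1*). In GA vs. CON these were −0.11 and −0.24, −0.032 and −0.065, −0.13 and −0.19, −0.38 and −0.27 and 0.18 in the same order. The median log2FC of all genes moved by less than 0.1 under each scaling. Of 2068 values recomputed for called comparisons of the 68 named genes, 1837 stayed called in the same direction and 230 no longer passed. With 3 libraries a group, differences inside the 95% intervals given cannot be resolved, and without read counts the counting error is unknown.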

Other observations

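Of 7 tested pentose phosphate pathway genes, which branch from glucose 6-phosphate, 2 were lower in GB vs. GA and 3 in GB vs. CON, and 0 were higher, beside 29% and 33.5% of all tested genes that passed in either direction. *PGD* was the lowest of them (−0.23, adjusted p = 0.00287 in GB vs. GA, and −0.24, adjusted p = 0.00173 in GB vs. CON), and *TKT* was lower as well (−0.13, adjusted p = 0.0308 and −0.13, adjusted p = 0.0245). The *TKT* call was lost in GB vs. GA with TPM scaling, median-of-ratios factors, quantile normalization, no variance trend or the replicate block. It was also lost there without any GA library, GB2 or GB3. In GB vs. CON it was lost with median-of-ratios factors, no variance trend or only the 2 groups, and without GB2 or GB3. Of 16 tested TCA cycle genes, 5 were lower and 1 higher in GB vs. GA and 3 lower and 1 higher in GB vs. CON. The same 29% and 33.5% of all tested genes stand beside these counts. The succinyl-CoA ligase subunits went in opposite directions, with *SUCLA2* lower (−0.35, adjusted p = 0.00169 and −0.20, adjusted p = 0.0264) and *SUCLG2* higher (0.21, adjusted p = 0.0139 and 0.28, adjusted p = 0.00279). *OGDH* (−0.26 and −0.28), *SDHD* (−0.26 in GB vs. GA) and *DLST* (−0.24 in GB vs. CON) were lower. The calls of *SUCLA2* in GB vs. CON (without CON2, CON3 or GB1) and *SUCLG2* in GB vs. GA (without GA2, GB2 or GB3) were lost with a library left out.

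Of 10 tested gluconeogenesis and glycogen genes, 4 were lower and 1 higher in GB vs. GA, and 4 lower and 2 higher in GB vs. CON. Across all tested genes, 29% and 33.5% passed in these comparisons. Glycogen synthase *GYS1* (−0.29, adjusted p = 0.0122 and −0.39, adjusted p = 0.00246), branching enzyme *GBE1* (−0.40, adjusted p = 0.00184 and −0.23, adjusted p = 0.0236) and phosphorylase *PYGB* (−0.28, adjusted p = 0.0104 and −0.28, adjusted p = 0.00836) were lower in both, *PCK2* (0.36, adjusted p = 0.0174 and 0.29, adjusted p = 0.0374) was higher in both, and *UGP2* was higher in GB vs. CON (0.24, adjusted p = 0.0288). The *PCK2* call was lost in GB vs. GA without GB2 and in GB vs. CON without any CON library, GA2, GB2 or GB3, that of *GBE1* in GB vs. CON without CON1, CON3, GB1 or GB2, and that of *UGP2* without CON1, CON2, GB2 or GB3. Of 9 NADH shuttle genes, *GPD1* (−0.80, adjusted p = 0.00545) and *SLC25A11* (−0.15, adjusted p = 0.0478) were lower in GB vs. GA beside *GPD1L*, and *SLC25A12* was higher in GB vs. CON (0.25, adjusted p = 0.00844). The *SLC25A11* call was lost when any GA or GB library was left out.

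Other targets of HIF did not share 1 direction. Of 15 tested, 4 were lower and 1 higher in GB vs. GA, and 3 lower and 4 higher in GB vs. CON. For all tested genes, the shares that passed were 29% and 33.5% in the same order. *VEGFA* was at 168, 178 and 213 FPKM (CON), 143, 141 and 148 FPKM (GA) and 94.8, 84.8 and 114 FPKM (GB), lowest in GB (−0.56, adjusted p = 0.00521 against GA, and −0.93, adjusted p = 0.000262 against CON). *NDRG1* (−0.44, adjusted p = 0.000191 and −0.55, adjusted p = 3.32e-05) was lower in both comparisons, *BNIP3L* in GB vs. GA (−0.48, adjusted p = 0.00543) and *P4HA2* in GB vs. CON (−0.19, adjusted p = 0.00316). *HMOX1* was higher in GB vs. GA (0.15, adjusted p = 0.0316), and *ERO1A* (0.29, adjusted p = 0.0154) and *ADM* (0.28, adjusted p = 0.0180) were higher in GB vs. CON. The *HMOX1* call was lost without GA2, GA3, GB1 or GB3, that of *ERO1A* without GB3 and that of *ADM* without GB2. With read GC content as a covariate, the calls named in these paragraphs for GB vs. CON were lost, except those of *VEGFA* and *NDRG1*.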
